A study of Homo sapiens with 6 samples.

Results

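The genes described here belong to enzyme families that place or remove methyl and acetyl groups on lysines, though not every member is known to act on histones. They were chosen by the family names of their symbols (KDM1 to KDM8, KMT2 to KMT5, SETD, EHMT, SUV39H, NSD, EZH, HDAC, KAT2 to KAT8 and SIRT). The rule found 70 of the 20442 genes in the deposited count table and used no measured value. RNA sequencing had compared T24 cells, an established line of bladder tumor epithelium, after a control siRNA (si-NC) or an siRNA directed at KNSTRN (si-KNSTRN), a gene of the mitotic spindle. Cells attached for 24 h in serum-containing medium and then received either siRNA for 24 h, so that both groups went through a transfection and no group without siRNA enters. Each group holds 3 libraries, which the submitters call biological replicates of this single line. The sources used here do not give the number or sequences of the siRNAs in si-KNSTRN.

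Libraries held 16386799 to 20596074 counted reads. KNSTRN itself fell by 1.62 on the log2 scale (SE 0.072) and was lower in 3 of 3 si-KNSTRN libraries than in any si-NC library. The epithelial keratin genes KRT7, KRT8 and KRT18 had mean levels of 1013, 1080 and 843 CPM (reads scaled to library size and between libraries by TMM) in si-NC cells, whereas 9 of 18 urothelial and epithelial markers did not pass the low-count filter, with KRT5, CDH1 and UPK3A at 0 reads in every library. Of those that passed, UPK1A, EPCAM, KRT19 and GATA3 stood at only 0.83, 0.72, 1.03 and 1.64 CPM in si-NC cells. PPARG and KRT7 were called higher (log2 fold changes of 0.64 and 0.23), UPK1A was called lower (-2.20) and the other 6 were not called. Of 14 markers of blood, vessel and stroma cells, 10 did not pass the filter. The summed level of those 14 markers was 44.8 to 51.7 CPM in si-NC and 57.6 to 59.2 CPM in si-KNSTRN libraries. CD68 rose, from 32.6 to 45.4 CPM, whereas the stromal genes PDGFRB and COL1A1 fell (log2 fold changes of -1.88 and -0.26), and PECAM1 was not called. The part of these differences in the results below was not tested.

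Histone lysines carry methyl and acetyl marks that are written by methyltransferases and acetyltransferases and erased by demethylases, HDACs and sirtuins. Methylation of H3K4 and H3K36 is found at active genes and that of H3K9, H3K27 and H4K20 mostly at silent or compact chromatin, while acetylation opens chromatin. Several of these enzymes, among them KMT2D, KMT2C and KDM6A, are often mutated in bladder cancer. JmjC demethylases need oxygen, iron and 2-oxoglutarate, and sirtuins need NAD.

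The enzyme genes leaned downward. Of the 68 members tested, 34 were lower in si-KNSTRN cells (50%), 13 were higher (19.1%) and 21 were not called, at an adjusted p under 0.05 in edgeR's quasi-likelihood test. Over all 12650 genes tested, 31.3% were lower and 31.2% higher (62.5% called in all). The median log2 fold change was -0.18 over the members and -0.0061 over all genes. Most differences were small, as they were over all genes. With an absolute log2 fold change of at least 0.5, 12 of 68 members were called lower and 3 of 68 higher. Over all 12650 genes, 1704 (13.5%) were called lower and 1373 (10.9%) higher by this measure. Levels of the 2 groups did not overlap for 52 members, 37 lower (54.4%) and 15 higher (22.1%), against 33.9% and 33.4% of all genes. KDM4E and KDM5D did not pass the filter, and KDM4E had no read. In bulk samples, less RNA per cell and fewer cells that make it cannot be told apart.

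More members were lower than higher in 4 of the 5 classes. Of 17 demethylases, 10 were lower and 2 higher, with a median log2 fold change of -0.24. Of 7 acetyltransferases, 4 were lower and 1 higher (median -0.25), of 11 HDACs 6 were lower and 1 higher (median -0.14), and of 26 methyltransferases 12 were lower and 6 higher (median -0.17). Classes follow gene symbols. The methyltransferases called lower include KMT2E, SETD5 and SETD3 (-0.46, -0.55 and -0.37), none of them an established histone lysine methyltransferase. Of 7 sirtuins, 3 were higher and 2 lower (median 0.079), but 3 and 3 with upper-quartile factors, where SIRT3 was also called lower (adjusted p = 0.0495 by edgeR). With library size as the only scaling, methyltransferases counted 11 lower and 9 higher. Acetyltransferases counted 4 lower and 2 higher with library size alone or DESeq2-type factors, and 4 lower and 0 higher with upper-quartile factors (edgeR, 0 higher at an unadjusted p under 0.05 as well, and 1 higher with DESeq2). Scaling also ended single calls: KMT2D, SETD9, KDM1A and KAT2A were not called with upper-quartile factors (adjusted p = 0.145, 0.0708, 0.191 and 0.141 by edgeR), nor SETD1B and HDAC2 with library size alone (0.0589 and 0.0768).

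**Figure D1:**
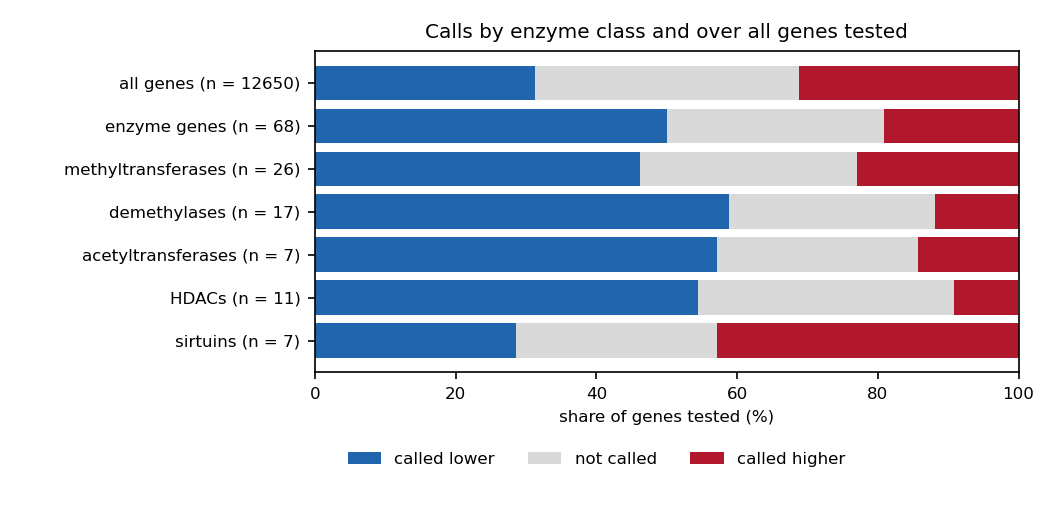
Shares of genes called lower (blue), not called (grey) and called higher (red) in si-KNSTRN against si-NC cells, in percent of the genes tested, for all 12650 genes, the 68 enzyme genes and each class. The share called lower is 50% for the enzyme genes and 31.3% for all genes, and 3 of 7 sirtuins are in the red part.

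**Figure D2:**
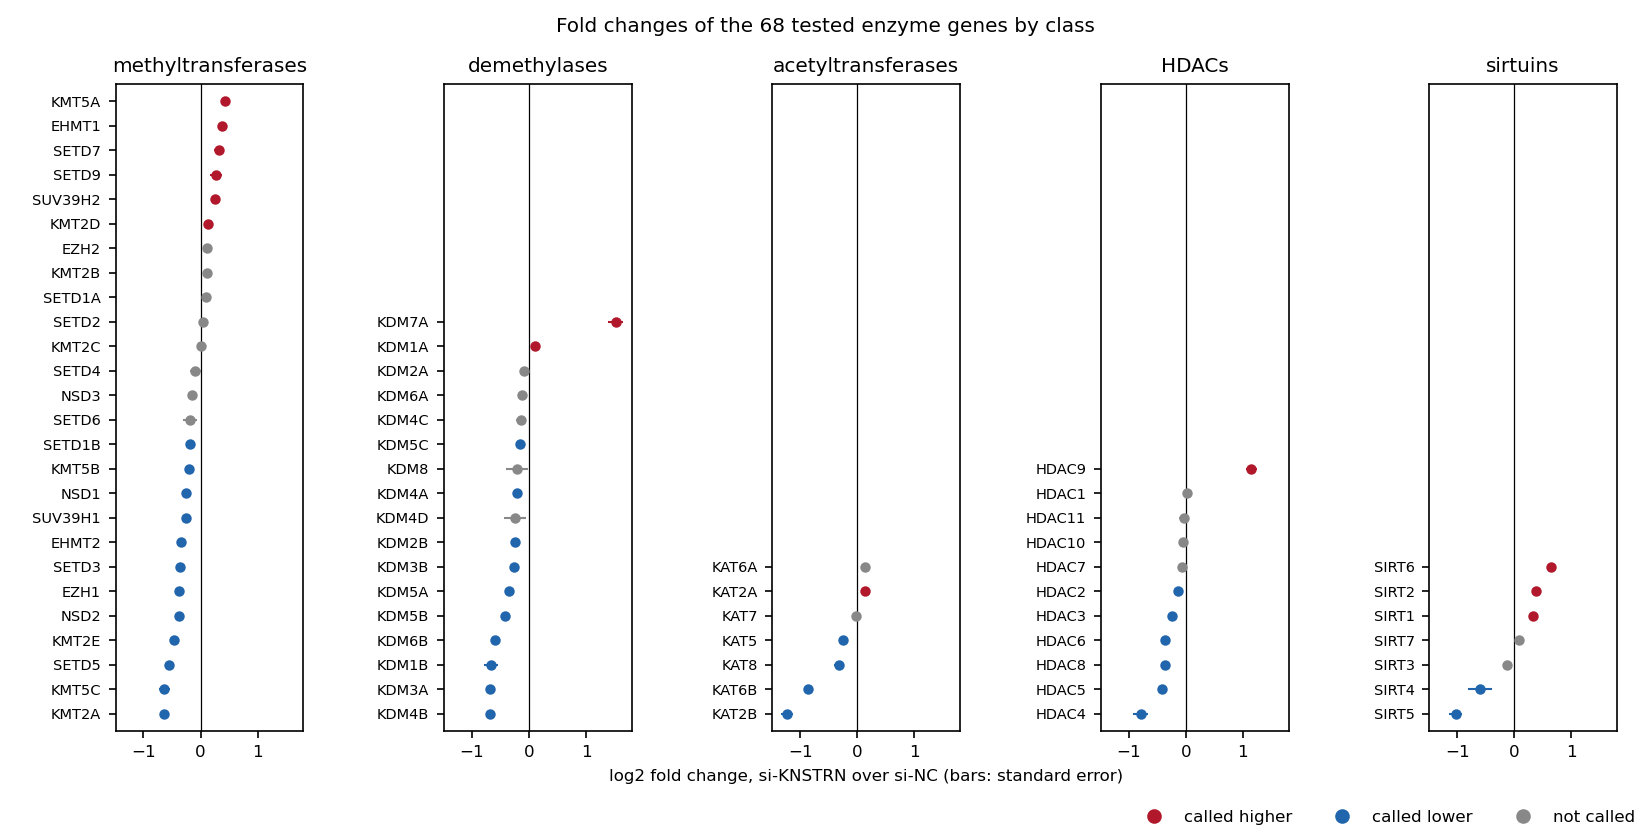
Log2 fold change (si-KNSTRN over si-NC) of each of the 68 tested enzyme genes, with its standard error, in 1 panel per class and colored by call. KDM7A and HDAC9 lie far to the right of their classes, and KAT2B, SIRT5 and KAT6B lie farthest to the left.

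Genes called lower in these libraries hold the letters TGAGTA in the 3' untranslated region (UTR) more often than other genes, a pattern found earlier in this same comparison, so the sites of the members are shown as a description. In 1 GENCODE transcript per gene, 15 of 66 members whose 3' UTR reached 50 bases or more held TGAGTA on the transcript strand (22.7%), against 27.3% of 12173 genes searched. Of these 15 members, 11 were called lower and 3 higher. The remaining one, NSD3, held 5 such sites, more than any other member, and was not called (-0.15). Of the 51 members without it, 22 were called lower and 9 higher. Among all genes, 40.9% of 3325 with TGAGTA and 27.8% of 8848 without it were called lower. The shares of all genes called higher were 22.3% with TGAGTA and 35.0% without it. The members, with 3 of 15 and 9 of 51 called higher, did not show a smaller higher share with TGAGTA. UTRs with the letters were longer, with medians of 3298 and 752 bases in the members and 2807 and 751.5 bases among all genes. The windows of 30 bases below are 5' to 3' on the transcript strand, with TGAGTA and any C before it or A after it in capitals. They come from 4 members with CTGAGTA that fell (the 3 with the largest falls among them first), from KDM4A with CTGAGTAA, and from the 3 members that rose.
KAT2B, chr3:20154152-20154181, plus strand: tttgttattttCTGAGTAgacattcttata
SIRT5, chr6:13611936-13611965, plus strand: tgggtggtgagCTGAGTActgaacaatcta
SETD5, chr3:9476519-9476548, plus strand: ccccaagccatCTGAGTActgttagggttt
NSD2, chr4:1980230-1980259, plus strand: gacctatctatCTGAGTActacatatgttt
KDM4A, chr1:43704893-43704922, plus strand: cctcagctgagCTGAGTAAgggctcctggg
KDM7A, chr7:140088917-140088946, minus strand: tttcacagctctTGAGTAttttctattttt
SIRT1, chr10:67917149-67917178, plus strand: tgacatgcagtgTGAGTAgaaggaagtcaa
SETD7, chr4:139510726-139510755, minus strand: ttttttcctcctTGAGTAcacattaaatgt
Positions are on GRCh38. CTGAGTA is found in KAT2B and SIRT5, the members with the largest falls, in SETD5, in NSD2 (-0.38) and in HDAC2, which fell by 0.14. KDM4A (-0.22) holds it as CTGAGTAA. The window of that HDAC2 site matches the window of another SIRT5 site, with TGAGTA alone, at 29 of 30 bases. Large falls also came without TGAGTA in the transcript searched: KAT6B, HDAC4, KDM4B, KDM3A, KDM1B, KMT2A, KMT5C, SIRT4 and KDM6B have none. The part of this sequence in the fall of any member was not tested.

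Among the H3K4 methyltransferases, KMT2A and KMT2E were lower and the other large KMT2 genes changed little. KMT2A (MLL1, chromosome 11, 118436492 to 118526832, GRCh38), a H3K4 methyltransferase that maintains HOX gene expression, stood at 132, 144 and 151 CPM in si-NC libraries 1 to 3 and at 93.1, 91.04 and 89.3 CPM in si-KNSTRN libraries 1 to 3. All si-KNSTRN libraries lay below all si-NC libraries, and the fall was 0.64 on the log2 scale (SE 0.052, adjusted p = 2.2e-08 by edgeR). KMT2E, which reads H3K4 methylation and has little or no methyltransferase activity, fell by 0.46. KMT2D, the enhancer H3K4 methyltransferase, had a log2 fold change of 0.14 (adjusted p = 0.039 by edgeR) with overlapping groups. Its call was lost on leaving out si-NC 1, si-NC 3 or si-KNSTRN 2 (adjusted p = 0.21, 0.057 and 0.23). KMT2B and KMT2C had log2 fold changes of 0.11 and 0.016 and were not called. Of the genes that supply most H3K4 methylation, SETD1B fell by 0.19, a call lost without si-NC library 2 or si-KNSTRN library 1 (adjusted p = 0.11 and 0.083), and SETD1A was not called (0.096). SETD7, a monomethyltransferase that also acts on many proteins outside chromatin, rose by a log2 fold change of 0.32.

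H3K9 methyltransferases divided evenly, 2 higher and 2 lower, and did so within each family. EHMT1 (GLP) and EHMT2 (G9a), which form a heterodimer that places mono- and dimethylation on H3K9, went opposite ways. EHMT1 (chromosome 9, 137619005 to 137836127) stood at 68.9, 67.99 and 71.4 CPM in si-NC and at 88.9, 87.7 and 92.7 CPM in si-KNSTRN libraries 1 to 3. EHMT2 (chromosome 6, 31879759 to 31897698) stood at 94.4, 93.1 and 88.0 CPM in si-NC and at 73.8, 72.3 and 71.7 CPM in si-KNSTRN libraries 1 to 3. Neither gene's groups overlapped, and the log2 fold changes were 0.37 (SE 0.047) and -0.34 (SE 0.047). SUV39H1 and SUV39H2, the trimethylating enzymes of pericentric chromatin, had log2 fold changes of -0.26 and 0.26.

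For H3K27, EZH1, the catalytic subunit of PRC2 that prevails in resting cells, fell by 0.37 (SE 0.078). EZH2, its counterpart in dividing cells, had a log2 fold change of 0.11 (adjusted p = 0.057 by edgeR) and was higher in each si-KNSTRN library than in any si-NC library. For H3K36, NSD2 and NSD1, dimethylating enzymes, fell by 0.38 and 0.25, and NSD3 (-0.15) and the trimethylating SETD2 (0.051) were not called. H4K20 enzymes divided by the step they carry out. KMT5A, the monomethyltransferase of mitotic chromosomes, rose by 0.43 on the log2 scale (SE 0.053), from 49.8 ± 1.5 to 67.2 ± 3.82 CPM (SD, n = 3). KMT5B and KMT5C, which add the further methyl groups, fell. KMT5C (chromosome 19, 55339876 to 55348121) stood at 10.9, 11.9 and 10.7 CPM in si-NC and at 7.13, 7.43 and 6.94 CPM in si-KNSTRN libraries 1 to 3, a fall of 0.64 (SE 0.097) without overlap.

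Among the remaining SETD genes, SETD5, a chromatin protein without established histone methyltransferase activity, fell most. It stood at 151, 148 and 160 CPM in si-NC and at 105, 104 and 105 CPM in si-KNSTRN libraries 1 to 3, a fall of 0.55 (SE 0.046, adjusted p = 2.9e-08 by edgeR). The 3 si-KNSTRN libraries were nearly equal and lay far below si-NC. SETD3, an actin histidine methyltransferase, fell by 0.37, and SETD9 had a log2 fold change of 0.27, a call lost on leaving out si-NC 1, si-NC 3, si-KNSTRN 1 or si-KNSTRN 2 (adjusted p = 0.075, 0.095, 0.082 and 0.11). SETD4 and SETD6 were not called (-0.093 and -0.18).

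Demethylases fell in most families. Of 15 tested JmjC members, 9 were lower (60%, against 31.3% of all genes), 5 were not called and only KDM7A was higher. KDM3A, a H3K9 demethylase and known hypoxia-induced gene (chromosome 2, 86437044 to 86492716), stood at 164, 163 and 173 CPM in si-NC and at 110, 108 and 94.97 CPM in si-KNSTRN libraries 1 to 3. The groups lay far apart, and si-KNSTRN library 3 was lowest (fall of 0.68, SE 0.055, adjusted p = 2.2e-08 by edgeR). KDM4B, which acts on methylated H3K9 and H3K36 (chromosome 19, 4969113 to 5153598), stood at 55.7, 54.3 and 49.3 CPM in si-NC and at 33.4, 34.1 and 31.1 CPM in si-KNSTRN libraries 1 to 3. Its fall of 0.69 (SE 0.064) was the largest in the class, whereas its relatives KDM4A fell by 0.22 and KDM4C (-0.15) and KDM4D (-0.24) were not called. KDM3B fell by 0.27.

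KDM6B (JMJD3), a H3K27 demethylase that inflammatory signals are known to induce (chromosome 17, 7834217 to 7854796), stood at 33.1, 34.7 and 34.3 CPM in si-NC and at 21.4, 24.9 and 21.5 CPM in si-KNSTRN libraries 1 to 3. It was lower throughout, by 0.59 (SE 0.071). KDM6A (UTX), the X-linked demethylase of the same mark, was not called (-0.13). The H3K4 demethylases of the KDM5 family fell together: KDM5B by 0.42, KDM5A by 0.35 and KDM5C by 0.15, the last a call lost without si-NC library 2 (adjusted p = 0.062). KDM2B, a H3K36 demethylase that recruits Polycomb to CpG islands, fell by 0.24, and KDM2A was not called (-0.084). KDM8 was not called either (-0.22, at 2.11 CPM in si-NC cells).

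The 2 flavin-dependent demethylases differed. KDM1B (LSD2, chromosome 6, 18155422 to 18223854) stood at 10.7, 10.1 and 10.3 CPM in si-NC and at 7.38, 7.04 and 5.17 CPM in si-KNSTRN libraries 1 to 3, a fall of 0.67 (SE 0.12). KDM1A (LSD1) was abundant, at 128 ± 2.34 CPM in si-NC cells, and had a log2 fold change of 0.11. The call of KDM1A was lost on leaving out si-NC 1, si-NC 2, si-KNSTRN 2 or si-KNSTRN 3 (adjusted p = 0.0656, 0.133, 0.0925 and 0.105).

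KDM7A had the largest change of all members. This JmjC demethylase of H3K9 and H3K27 (chromosome 7, 140084746 to 140176983) had 70, 59 and 68 reads in si-NC and 182, 221 and 180 in the 3 si-KNSTRN libraries, or 3.45, 3.67 and 3.74 against 9.20, 12.2 and 9.69 CPM. Each si-KNSTRN library lay far above si-NC, library 2 highest, a rise of 1.52 on the log2 scale (SE 0.13, adjusted p = 4.8e-08 by edgeR), or 2.87-fold. Per kilobase of transcript it was the lowest of the 17 tested demethylases in si-NC cells, at 0.390 ± 0.016 CPM, below KDM4D (0.642 ± 0.050) and KDM8 (0.857 ± 0.13). In si-KNSTRN cells it stood at 1.12 ± 0.18, above KDM4D (0.542 ± 0.020) and KDM8 (0.740 ± 0.071; SD, n = 3 each).

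**Figure D3:**
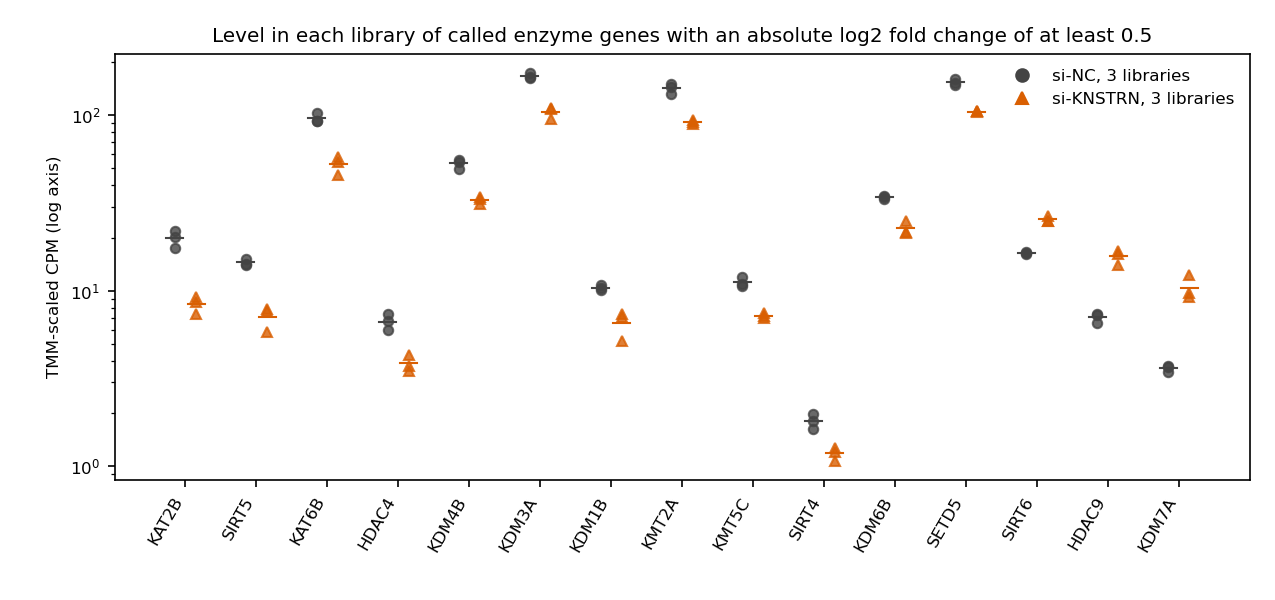
TMM-scaled CPM on a log axis in each si-NC library (grey circles) and si-KNSTRN library (orange triangles), with group means as short lines, for the 15 members called with an absolute log2 fold change of at least 0.5. The groups do not overlap for any of them, and only SIRT6, HDAC9 and KDM7A are higher in si-KNSTRN. These members were chosen by their difference in the same libraries, so the lack of overlap is no separate result.

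Among acetyltransferases, the 2 largest falls were in KAT2B and KAT6B, each of which has a close relative that did not fall. KAT2B (PCAF, chromosome 3, 20040446 to 20154404), a coactivator that acetylates H3K9, had 355, 325 and 399 reads in si-NC and 183, 155 and 137 in the 3 si-KNSTRN libraries, or 17.5, 20.2 and 21.9 against 9.25, 8.59 and 7.38 CPM. The highest si-KNSTRN library was far below the lowest si-NC library, and the fall of 1.24 (SE 0.10, adjusted p = 3.5e-08 by edgeR) was the largest of all members. KAT2A (GCN5), its relative in the SAGA and ATAC complexes, had a log2 fold change of 0.13, from 93.0 ± 5.42 to 102 ± 2.83 CPM. That call was lost on leaving out si-NC 2, si-NC 3, si-KNSTRN 2 or si-KNSTRN 3 (adjusted p = 0.0845, 0.118, 0.0974 and 0.0765).

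KAT6B (MORF, chromosome 10, 74824936 to 75032624), a MYST enzyme that acetylates H3K23, stood at 92.1, 92.6 and 103 CPM in si-NC and at 57.6, 54.0 and 45.8 CPM in si-KNSTRN libraries 1 to 3. The groups were well apart (fall of 0.87, SE 0.069, adjusted p = 1.9e-08 by edgeR). KAT6A (MOZ) had a log2 fold change of 0.13 and was just outside the threshold (adjusted p = 0.050 by edgeR), with all si-KNSTRN libraries above si-NC. KAT8 (MOF), the H4K16 acetyltransferase, and KAT5 (TIP60), the catalytic subunit of NuA4, fell by 0.33 and 0.25, and KAT7 (HBO1) was not called (-0.019). In KAT5, 49.5% of the transcript lies under annotated exons of RNASEH2C, which fell by 0.35, and the reads of both genes cannot be told apart without strand.

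The class IIa HDACs, which shuttle between nucleus and cytoplasm and repress MEF2 targets, held both the largest rise and the largest fall of the HDACs. HDAC9 (chromosome 7, 18086825 to 19002416) stood at 7.29, 6.53 and 7.36 CPM in si-NC and at 14.1, 16.2 and 16.9 CPM in si-KNSTRN libraries 1 to 3. It was higher in each si-KNSTRN library, by 1.15 on the log2 scale (SE 0.10, adjusted p = 4.9e-08 by edgeR), or 2.22-fold. HDAC4 (chromosome 2, 239048168 to 239401649) stood at 6.75, 7.34 and 5.93 CPM in si-NC and at 3.74, 4.32 and 3.50 CPM in si-KNSTRN libraries 1 to 3, a fall of 0.79 (SE 0.13) without overlap. HDAC5 fell by 0.41, and HDAC7, the member of this class with the highest level per kilobase (28.3 CPM in si-NC), was not called (-0.063).

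Among the class I HDACs, HDAC3, the deacetylase of the NCoR complex, fell by 0.24 and HDAC2, found in NuRD, Sin3 and CoREST, by 0.14. HDAC8, which is in none of these complexes, fell by 0.36. The call of HDAC2 was lost on leaving out si-NC 3, si-KNSTRN 2 or si-KNSTRN 3 (adjusted p = 0.0768, 0.066 and 0.0875). HDAC1, the member with the highest level per kilobase in this report (89.1 ± 4.23 CPM in si-NC, 90.5 ± 2.38 in si-KNSTRN), was not called (0.024). HDAC6, the cytoplasmic tubulin deacetylase, stood at 78.4, 79.5 and 73.1 CPM in si-NC and at 60.3, 60.01 and 59.4 CPM in si-KNSTRN libraries 1 to 3. It fell by 0.36 (SE 0.048) with tight groups. HDAC10, a polyamine deacetylase, and HDAC11 were not called (-0.046 and -0.028). For HDAC10, 86.7% of the transcript lies under annotated exons of MAPK12, which rose by 0.30 on the log2 scale. In addition, 72.5% of the 50-base windows of HDAC8 44.8% of those of KDM4A, 26.1% of those of KMT2A and 22.2% of those of KMT5A recur in transcripts of other annotated loci, so these values are uncertain.

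Of the 7 sirtuin genes, SIRT6, SIRT2 and SIRT1 rose and SIRT5 and SIRT4 fell. SIRT6, the deacetylase of H3K9 and H3K56 at telomeres and glycolytic genes (chromosome 19, 4174109 to 4182563), stood at 16.3, 16.5 and 16.4 CPM in si-NC and at 24.9, 24.9 and 26.6 CPM in si-KNSTRN libraries 1 to 3. All si-KNSTRN libraries were higher, by 0.64 on the log2 scale (SE 0.069, adjusted p = 5.9e-07 by edgeR). SIRT2, mostly cytosolic, and SIRT1, nuclear, rose by log2 fold changes of 0.37 and 0.33, and SIRT7, nucleolar, was not called (0.079). Of the mitochondrial sirtuins, SIRT5 had the one fall that kept its call under all alternatives. SIRT5, the mitochondrial desuccinylase (chromosome 6, 13574274 to 13615158), stood at 15.2, 14.1 and 14.2 CPM in si-NC and at 7.64, 7.87 and 5.81 CPM in si-KNSTRN libraries 1 to 3, a fall of 1.03 (SE 0.11, adjusted p = 5.0e-07 by edgeR). SIRT4 had only 33, 32 and 33 reads in si-NC and 24, 23 and 20 in the 3 si-KNSTRN libraries. Its fall of 0.60 (SE 0.21) lost its call without si-NC library 2 or si-KNSTRN library 3 (adjusted p = 0.071 and 0.072). With DESeq2 SIRT4 was not called either (adjusted p = 0.141). SIRT3, the main mitochondrial deacetylase, was not called (-0.13).

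The balance within families was measured as the log2 ratio of the reads of 2 relatives in the same library, which does not depend on scaling between libraries. Exactly 2 tested members were found in 10 families, and in 10 of 10 the ratios of the groups did not overlap. Levels of single genes did not overlap for 67.3% of all genes tested, but ratios of other gene pairs were not computed, so nothing is read from the count of 10. The exact two-sided permutation test gave p = 0.10 for each, the smallest value that 3 against 3 libraries allow, and 0.10 after Benjamini-Hochberg adjustment over the 10 pairs. No pair can therefore pass 0.05 by this test. The ratio of KAT2A to KAT2B was 2.50, 2.20 and 2.00 in si-NC and 3.42, 3.59 and 3.82 in si-KNSTRN libraries 1 to 3, a shift of 1.38 toward KAT2A. KAT6A to KAT6B shifted by 1.01, KDM1A to KDM1B by 0.80, EHMT1 to EHMT2 by 0.71 and KDM6A to KDM6B by 0.46. The ratio of SUV39H1 to SUV39H2 went from 0.72 ± 0.057 to 0.21 ± 0.059 and that of EZH1 to EZH2 from -1.86 ± 0.11 to -2.34 ± 0.053 (SD, n = 3 each). KDM3A to KDM3B shifted by -0.41, and SETD1A to SETD1B and KDM2A to KDM2B by 0.28 and 0.16.

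**Figure D4:**
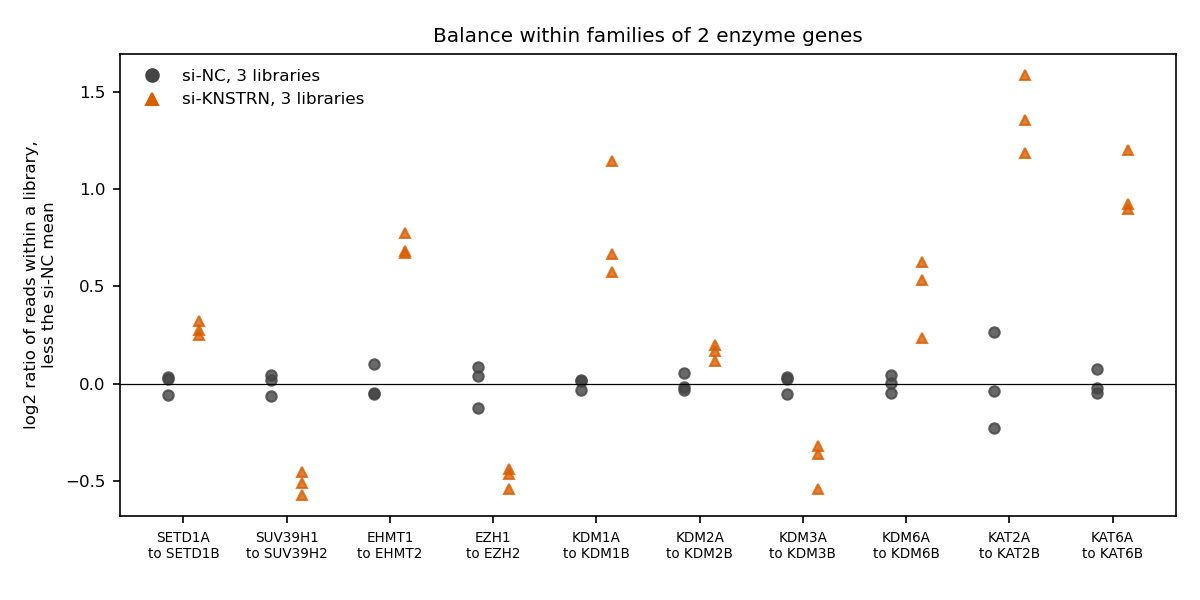
Log2 ratio of the reads of 2 family members within each library, less the mean of the si-NC libraries, for the 10 families with 2 tested members (si-NC, grey circles; si-KNSTRN, orange triangles). The groups do not overlap for any pair, and the widest shift is that of KAT2A to KAT2B (1.38).

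Summed over a class and per kilobase of transcript, demethylase transcripts went from 247 ± 3.49 to 212 ± 0.988 CPM per kilobase (SD, n = 3), or -14.4%. Acetyltransferases went from 93.9 ± 2.48 to 82.5 ± 1.71 (-12.2%), methyltransferases from 310.5 ± 6.60 to 285 ± 2.30 (-8.17%) and HDACs from 270.3 ± 6.34 to 250.8 ± 3.43 (-7.22%). Sirtuins went the other way, from 69.4 ± 1.20 to 79.4 ± 3.74 (14.4%). For each class the libraries of the 2 groups did not overlap. Levels of single genes did not overlap for 67.3% of all genes tested, and sums over other sets of genes were not computed, so nothing is read from this. These sums weigh abundant members most and depend on the transcript used for each gene's length, and no test was made of them.

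Enzymes and related proteins whose symbols fall outside the rule were looked at next. Of 8 JmjC proteins such as PHF8 and JMJD6, 5 were higher (62.5%) and the other 3 (PHF2, JMJD1C and HR) were not called. Their median log2 fold change was 0.34, against -0.24 for the demethylase class. This list is not one of histone demethylases alone, so the medians do not compare like with like. JMJD6, a lysyl hydroxylase, went from 59.2 ± 1.75 to 98.9 ± 6.83 CPM (log2 fold change 0.74), and the ribosomal oxygenase gene RIOX1 and HSPBAP1 rose by 0.62 and 0.92. Of the 2 relatives of KDM7A in this list, both named after their values were seen, PHF8 rose by 0.30 and PHF2 was not called (-0.086). Of 13 other methyltransferases tested, 5 were higher (38.5%) and 3 lower (23.1%), against 31.2% and 31.3% of all genes. SMYD5 and the H3K79 methyltransferase DOT1L rose by log2 fold changes of 0.84 and 0.60, and ASH1L, a H3K36 methyltransferase, fell by 0.39. Of 8 other acetyltransferases, 2 were higher and 2 lower (25% each). The counts were 1 and 2 with upper-quartile factors, and 3 and 2 with library size alone. The coactivator gene NCOA3 rose by 0.36, and HAT1, which acetylates new H4, and NCOA2 fell by 0.37 and 0.43.

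Many of these enzymes act within complexes, and their partners gave a mixed picture. Of 38 partners in the NuRD, Sin3, CoREST and NCoR deacetylase complexes, 19 were lower and 8 higher (median -0.16). CHD3, a NuRD remodeler, went from 491 ± 16.4 to 306.5 ± 11.9 CPM and the CoREST-associated ZMYM3 from 128 ± 3.03 to 70.3 ± 3.51 CPM, falls of 0.68 and 0.87. GATAD2A, a NuRD scaffold, rose by a log2 fold change of 0.77. Of 10 PRC2 partners, 6 were lower and 2 higher (median -0.20). SUZ12, a core subunit needed for EZH1 and EZH2 activity, and the histone binder RBBP4 fell by 0.52 and 0.46, while the accessory subunit JARID2 rose by 0.59.

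Of 13 COMPASS partners, which serve the KMT2 and SETD1 enzymes, 4 were higher and 3 lower (median 0.023). The core subunits WDR5 and RBBP5 both rose, by log2 fold changes of 0.46, and PSIP1, a chromatin tether of KMT2A, fell by 0.55. Of 23 SAGA and ATAC partners of KAT2A and KAT2B, 6 were higher and 7 lower (8 and 6 with library size alone), and YEATS2, an ATAC reader of acetylated histones, fell by 0.57, ZZZ3 by 0.32 and TAF9 by 0.28. Of 30 MYST partners, 11 were lower and 6 higher (median -0.064). ING4, a reader of H3K4 methylation in the KAT7 complex, went from 35.2 ± 1.18 to 16.1 ± 1.63 CPM, a fall of 1.13, MORF4L1 fell by 0.41, and the helicase gene RUVBL1 rose by 0.51. Shares called lower thus ran from 23.1% of COMPASS partners to 60% of PRC2 partners beside 31.3% of all genes. Shares called higher ran from 20% of PRC2 and of MYST partners to 30.8% of COMPASS partners beside 31.2% of all genes.

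**Figure D5:**
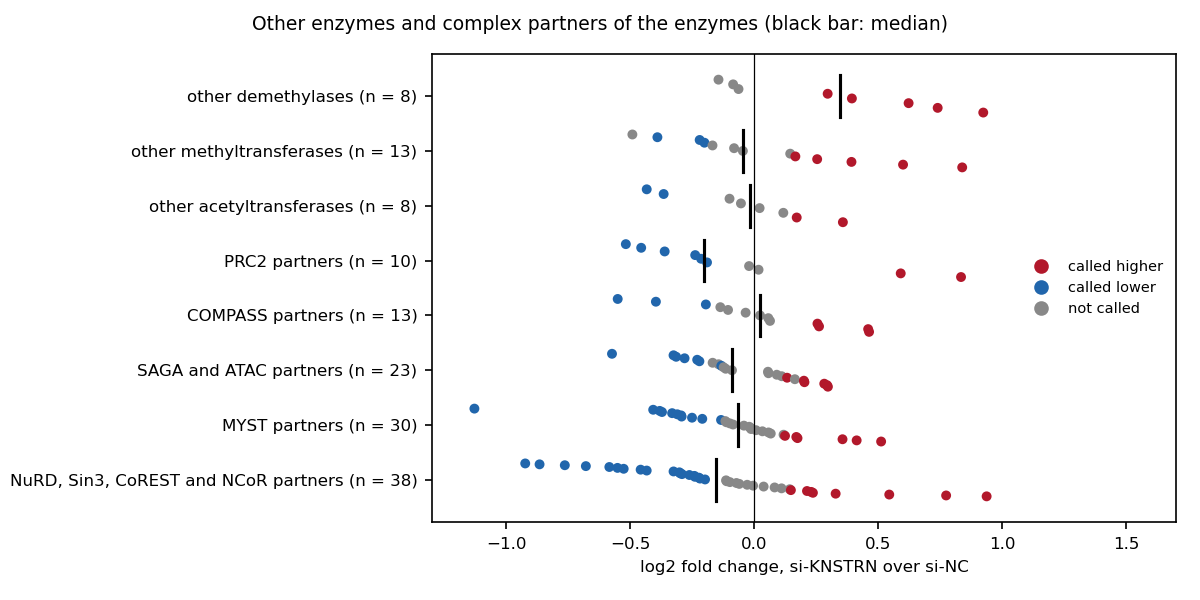
Log2 fold change (si-KNSTRN over si-NC) of each tested gene in 3 lists of other enzymes and 5 lists of complex partners, colored by call, with the list's median as a black bar. The list labeled other demethylases holds 8 JmjC proteins, not all of them histone demethylases, and its median lies at 0.34. The medians of the PRC2 and the NuRD, Sin3, CoREST and NCoR partners lie at -0.20 and -0.16.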

How the data were processed

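The deposited table holds raw read counts per gene for 6 RNA-seq libraries of T24 cells, 3 per group. The submitters' processing notes name HISAT2 2.0.1, featureCounts, fastp 0.20.0 and FastQC 0.11.5, and the build GRCh38. The sources used here give no strand setting or annotation. From the counts, edgeR 4.0.16 (R 4.3.3) was run with filterByExpr (minimum count 10), TMM factors and its quasi-likelihood test (two-sided) between the groups, with Benjamini-Hochberg adjustment over all 12650 genes passing. A count of 0 allows up to 3 reads, or 0.146 to 0.183 CPM, for counting error only. Replicate pairs differed by more than counting noise (chi-square per degree of freedom 2.16 to 10.3). In counts simulated for this comparison (12641 genes tested), 66% of 50 genes changed 1.25-fold and 98% of 50 changed 1.5-fold were recovered. The changed genes all had means above 1 CPM, and every gene was given the same variability. Recovery can therefore differ in the measured data, where 62.5% of genes were called.

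Per-library values are given for called members with an absolute log2 fold change of at least 0.5 and the 2 members of each class with the smallest p, and for EHMT1 and EHMT2, chosen after their values were seen. Of each partner list the 3 genes with the smallest p are named. The members, classes and lists were chosen with earlier results of these data known. Transcript lengths, 3' UTRs and exon overlaps come from GENCODE 29, with the principal, longest coding transcript per gene, and gene positions from RefSeq (GRCh38.p14). Alternatives were other scalings, DESeq2 1.42.0, limma-voom (limma 3.58.1), other low-count filters, a replicate block and leaving out each library. Scipy 1.17.1 gave the permutation tests.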

Additional observations from a re-analysis of the deposited data

How the results depend on the processing

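Of the 47 called members, 39 kept their call under all 14 alternatives, as did 14 of the 15 with an absolute log2 fold change of at least 0.5 (SIRT4 being the exception). Members called lower numbered 31 to 35 with 1 library left out and 32 to 39 under the other alternatives (34 as reported), and members called higher 9 to 12 and 9 to 17 (13 as reported). Demethylases called higher numbered 1 in place of 2 with upper-quartile factors and 1 to 2 with 1 library left out. Acetyltransferases called higher numbered 2 in place of 1 with DESeq2-type factors, library size alone, limma-voom and a low-count filter at 1 CPM, 0 with upper-quartile factors and 0 to 1 with 1 library left out. Sirtuins called lower numbered 3 in place of 2 with upper-quartile factors, which makes them as many as those called higher (3), 1 with DESeq2, where SIRT4 lost its call (adjusted p = 0.14), and 1 to 2 with 1 library left out. SETD9 also lost its call with DESeq2 (adjusted p = 0.12). Of the other acetyltransferases, 1 was higher in place of 2 with upper-quartile factors. The cause of these changes was not tested.

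Values that changed sign were all uncalled: KMT2C with upper-quartile factors (-0.0267) and without si-NC library 1 (-0.00789 to 0.0495 with 1 library left out), HDAC1 likewise (-0.0197, and -0.0107 to 0.0578), KAT7 with library size alone (0.0174) and without si-NC library 2 (-0.0640 to 0.00384 with 1 library left out), and HDAC11 with library size alone (0.00864). The replicate block left 1 demethylase called higher in place of 2, since KDM1A lost its call (adjusted p = 0.061), and changed no other member's call. No pairing of libraries by replicate number was seen: deviations from the group means correlated by -0.061, 0.062 and -0.032 across genes between same-numbered libraries, and not every library correlated best with its own number. The sample labels do not say whether same-numbered libraries were handled together, and these correlations cannot settle it. Depth limits KDM4D, KDM8 and SIRT4 most, with 20 to 50 reads per library.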
